A study of Mus musculus with 6 samples.

Results

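The cytosolic ribosomal protein genes were examined in fresh mouse splenocytes labelled as knockout or wild type for Top3b, which encodes a type IA topoisomerase that acts on RNA as well as DNA. Members were taken by gene symbol, with every symbol of the form Rpl or Rps followed by a number included, together with Rplp0, Rplp1, Rplp2 and Rpsa. Of 56413 symbols in the deposited count table, 89 met this rule, and symbols marked as pseudogenes by -ps (322 symbols) were not members. The members comprised 77 main copies, of which 46 encode proteins of the large subunit and 31 proteins of the small subunit. A further 6 were coding paralogs with a tissue-restricted or alternative role (Rpl3l, Rpl7l1, Rpl10l, Rpl22l1, Rpl39l and Rps27l). The remaining 6 were other copies, namely the processed pseudogenes Rpl6l, Rpl32l, Rps3a2, Rps3a3 and Rps12l1 and the transcribed processed pseudogene Rps4l. The classes of these copies were read from GENCODE M21.

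Total RNA depleted of ribosomal RNA was sequenced from 3 Top3b-KO and 3 WT libraries of total splenocytes, in a study that asks what Top3b does in immune cells and tumour formation. The labels give the genotype only as knockout or wild type, and they do not state the allele, strain, sex, age or number of animals. They also do not say whether the replicates came from separate animals, and p-values therefore measure the spread among the 6 libraries sequenced.

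A cytosolic ribosome is built from a small subunit, which reads the mRNA, and a large subunit, which joins the amino acids, and nearly every ribosomal protein is needed in a single copy per ribosome. The mRNAs of these genes are among the most abundant in lymphocytes. Many start with a C followed by an uninterrupted stretch of C and T, the 5′ terminal oligopyrimidine motif, through which growth signalling by mTOR and the RNA-binding protein Larp1 controls their translation. Mammalian genomes hold many processed copies of these genes, so a short read from a ribosomal protein mRNA can match several places.

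The start regions are shown because the terminal oligopyrimidine motif is the sequence feature by which these mRNAs are known. RefSeq promoter windows (GRCm38.p6, from 250 bases before to 50 bases after the annotated start) matched 57 of the 77 main copies. An annotated start at C followed by further C or T to a run of at least 5 bases was present in 13 of these 57 (22.8%), against 813 of 27025 genes (3.01%). The motif and the minimum run were chosen after the sequences had been seen. The windows below run from 20 bases before the start to 20 bases from it onwards, on the transcribed strand, and capitals mark the C and T run that holds the first transcribed base, which is base 21.
Rpl15 (chr14:18270967-18271006, minus strand): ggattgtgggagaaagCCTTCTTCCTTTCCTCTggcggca
Rpl35 (chr2:39005112-39005151, minus strand): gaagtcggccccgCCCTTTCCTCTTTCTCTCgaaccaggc
Rps10 (chr17:27635225-27635264, minus strand): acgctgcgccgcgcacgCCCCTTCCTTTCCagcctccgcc
Rps18 (chr17:33955646-33955685, minus strand): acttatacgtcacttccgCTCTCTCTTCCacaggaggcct
Rps6 (chr4:86857348-86857387, minus strand): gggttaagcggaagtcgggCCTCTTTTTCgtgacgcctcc
Rpl38 (chr11:114668560-114668599, plus strand): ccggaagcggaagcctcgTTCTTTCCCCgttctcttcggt
Rpl22l1 (chr3:28805488-28805527, plus strand): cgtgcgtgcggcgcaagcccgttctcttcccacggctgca
Rpl39 (chrX:37085203-37085242, minus strand): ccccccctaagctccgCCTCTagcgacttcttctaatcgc
Rpl15, Rpl35, Rps10, Rps18, Rps6 and Rpl38 all start inside such a run, with 13, 11, 10, 9, 9 and 8 C or T bases from the start onwards. Rpl22l1, the paralog of Rpl22, has a G at its annotated start and so no run that holds it, but a C and T run begins at the next base. In Rpl39 a short run ends at the first transcribed base. A C or T run of at least 10 bases anywhere in the 100 bases around the start was present in 42 of the 57 main copies (73.7%), against 20.6% of all genes. CCGGAAG, a sequence of the kind bound by ETS factors such as GABP, was present on either strand of the 300-base window in 24 main copies (42.1%), against 9.93% of all genes. TATAAA on the transcribed strand was present in 5 main copies (8.77%), against 9.77% of all genes. These matches describe letters in the windows and were not tested as binding sites.

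The deposited values were expected counts, and total counts per library were 24510385, 25473404 and 9941014 in Top3b-KO and 15448259, 15262060 and 15860287 in WT. Levels are given as CPM, counts scaled to library size with edgeR's TMM factors, and 3 counts, taken as the detection floor, correspond to between 0.119 and 0.303 CPM per library. Top3b itself, the check of the labels, was at 51.5, 48.2 and 49.7 CPM in Top3b-KO and at 95.1, 86.9 and 91.0 CPM in WT. Its mean was 49.8 ± 1.66 CPM in Top3b-KO and 91.0 ± 4.06 CPM in WT (SD, n = 3 each), a log2 fold change of -0.87 (SE 0.071, edgeR adjusted p 5.78e-06). The mean in the libraries labelled Top3b-KO was thus 54.7% of the WT mean. Counts are summed over the whole gene and the allele is not stated, so the deleted part was not examined. Markers of B cells, T cells and the other spleen cell types examined were detected, and none was at 0 in every library.

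Main copies were abundant in every library and covered a wide range of levels. To compare genes, CPM were divided by the length in kilobases of 1 GENCODE M21 transcript per gene. Over the mean of the 6 libraries, the median main copy was at 625 CPM per kb, with small-subunit genes at a median of 769 and large-subunit genes at 576 CPM per kb. The most abundant large-subunit genes were Rpl41, which encodes a very short basic peptide, at 2475 CPM per kb, Rpl9 at 1234, Rpl37a at 1229 and Rpl4 at 1148 CPM per kb. Among the most abundant small-subunit genes were Rps14 at 2442 CPM per kb, Rps18 at 1933 and Rps4x, on chromosome X, at 1729 CPM per kb.

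Rpl41 was at 1292, 1436 and 1288 CPM in Top3b-KO and at 1466, 1421 and 1176 CPM in WT. Rps14 was at 1395, 1541 and 1415 CPM in Top3b-KO and at 1638, 1565 and 1192 CPM in WT. In both genes the Top3b-KO libraries lay inside the range of the WT libraries. The log2 levels per kb of the 77 main copies in Top3b-KO and WT correlated with r = 0.998 across genes, which are not independent replicates.

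The 3 lowest main copies were Rpl24 at 11.7, Rps10 at 22.3 and Rpl13a at 53.4 CPM per kb. These are also the 3 main copies with another gene, small RNAs aside, on the same strand over at least 10% of their exon bases. The annotation was GENCODE M21, and the limit was set after the values were seen. Gm28037 covers 484 of 1030 exon bases of Rpl24, Gm45713 covers 621 of 2114 of Rpl13a, and RPS10-NUDT3 covers 475 of 2311 of Rps10. Gm28037 and Gm45713 had 0 counts in the 6 libraries, and RPS10-NUDT3 is not listed in the table. Levels of these 3 genes are therefore uncertain, since the way the counting treated overlapping genes was not given in the sources used here. Without them the range over 74 main copies was 82.3 CPM per kb (Rps15a) to 2475 CPM per kb (Rpl41), a 30.1-fold range in place of 212-fold. The transcript used for Rps15a is annotated at 5130 bases, against a median of 774 bases over main copies, which lowers its level per kb.

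Copies elsewhere in the genome were common. Of the 77 main copies, 72 shared at least 1 window of 100 bases with another annotated gene, and 70 with an annotated pseudogene. At least 80% of the windows were shared in 11 main copies, whose median level was 581 CPM per kb, and under 10% in another 11, whose median was 413 CPM per kb. Across the 74 main copies other than Rpl24, Rps10 and Rpl13a, the shared percentage and the log10 level per kb correlated with r = 0.033. Of the main copies, 18 overlap a gene on the opposite strand, the most in Rpl35 (66.2% of exon bases, Wdr38) and Rpl23a (59.7%, Tlcd1). Reads of such pairs can be told apart only if the counting used strand, which was not given in the sources used here.

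**Figure D1:**
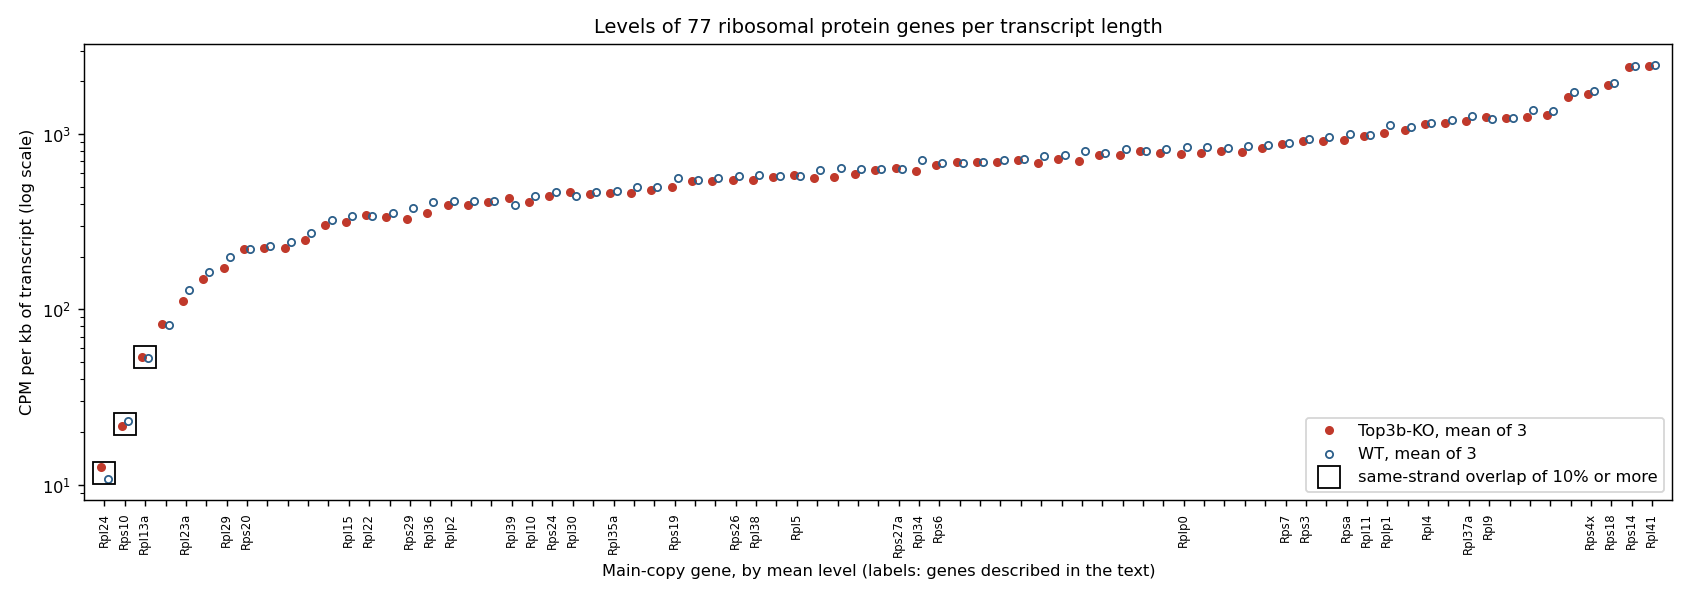
Mean level of each of the 77 main-copy ribosomal protein genes in CPM per kilobase of transcript (log axis), ordered from the lowest to the highest mean. Filled points are the Top3b-KO mean and open points the WT mean of 3 libraries, and squares mark Rpl24, Rps10 and Rpl13a, the 3 lowest genes, which share exons with another gene on the same strand. Gene names are given for genes described in the text.

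No ribosomal protein gene passed the test for a difference between Top3b-KO and WT splenocytes. In edgeR's quasi-likelihood test 0 of 86 tested members had an adjusted p under 0.05, against 0.0107% of the 18716 tested genes (0.00534% in each direction), and adjusted p-values of members ran between 0.67 and 0.997. DESeq2 and limma-voom also gave 0 members. With an unadjusted p under 0.05, edgeR gave 9 members lower in Top3b-KO, or 10.5%, against 3.69% of all tested genes, and 0 members higher, against 1.83% of all tested genes. In bulk RNA, fewer cells with a high content of these mRNAs and less of these mRNAs per cell cannot be told apart. Rpl10l and Rps12l1 had 0 counts in all libraries, Rpl39l had 0 to 3 counts, and these 3 were not tested.

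Differences between the genotypes were small and lay mostly on the same side. The median log2 fold change of the 86 tested members was -0.066, and the central range between the quartiles was -0.12 to -0.018, beside a median of -0.0029 over all tested genes. A log2 fold change below 0 was found for 71 of the 86 members (82.6%), against 50.9% of all tested genes. For 83 members it lay within 0.3 of 0, against 86.6% of all tested genes, a share that is again not matched for level. The members' levels rise and fall together between libraries, so these shares are not counts of independent genes. The median changed by more than 1.5 times when single libraries were left out, to -0.026 with Top3b-KO replicate 1 left out, to -0.10 with either Top3b-KO replicate 2 or WT replicate 3 left out and to -0.042 with WT replicate 2 left out. Without WT replicate 3, 2 members had an edgeR adjusted p under 0.05, with Rpl29 at 0.0364.

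Values were close in both subunits. The median log2 fold change of the 46 large-subunit genes was -0.067, with 37 below 0 and 5 at an unadjusted p under 0.05. The 31 small-subunit genes had a median of -0.065, with 28 below 0 and 3 at an unadjusted p under 0.05. In both subunits these calls were lower in Top3b-KO, against 3.69% of all tested genes. The ratio of large-subunit to small-subunit counts was 1.07, 1.08 and 1.10 in the Top3b-KO libraries and 1.07, 1.08 and 1.09 in the WT libraries. Its mean was 1.08 ± 0.0153 in Top3b-KO and 1.08 ± 0.00937 in WT (SD, n = 3 each), and the ranges overlapped.

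**Figure D2:**
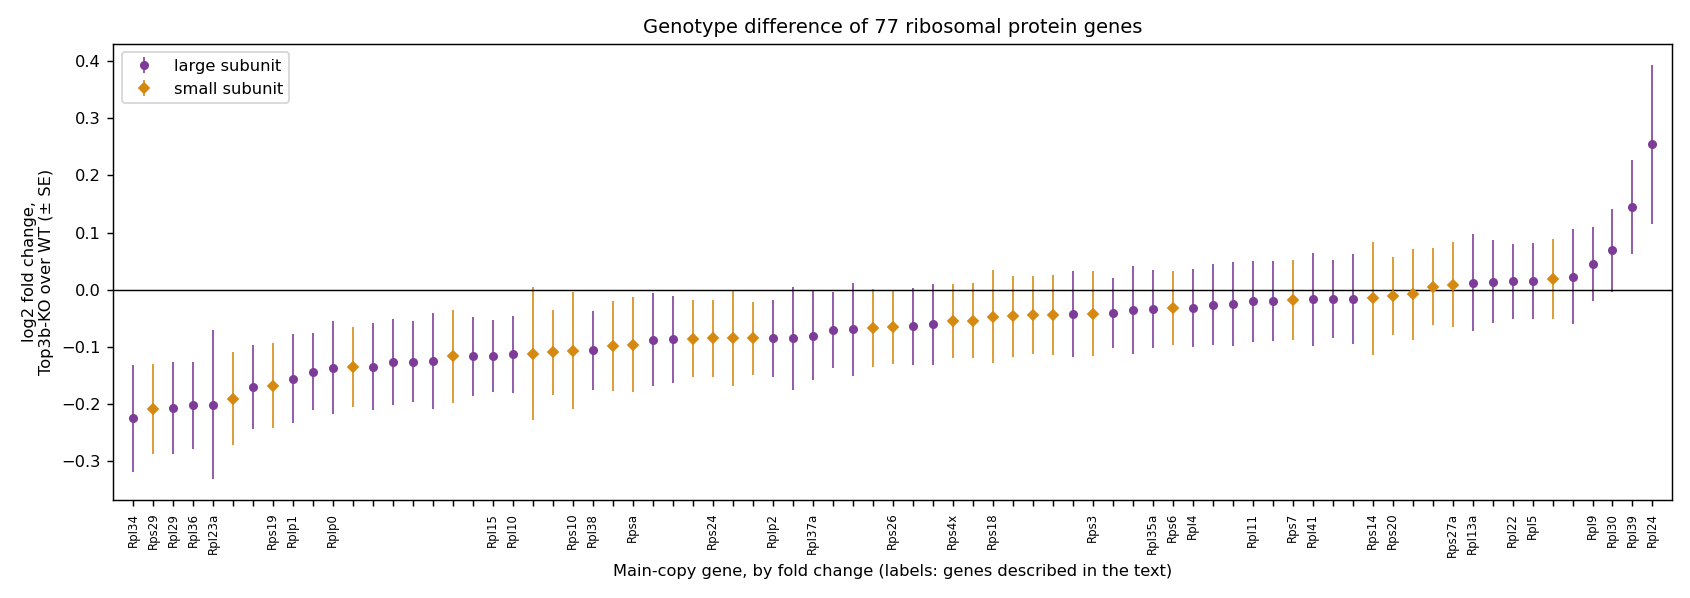
Log2 fold change, Top3b-KO over WT, of each of the 77 main-copy genes with its standard error from edgeR, ordered from the lowest to the highest. Circles are large-subunit and diamonds small-subunit genes. Most points lie between -0.22 and 0.07, with Rpl39 and Rpl24 above this range, and no gene passed the adjusted threshold.

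Among large-subunit proteins, Rpl36, Rpl29 and Rpl34 had the lowest unadjusted p-values. Rpl36 was at 142, 127 and 138 CPM in Top3b-KO and at 163, 166 and 139 CPM in WT. The WT replicate 3 library lay among the Top3b-KO libraries, and the log2 fold change was -0.20 (SE 0.076, edgeR adjusted p 0.83). Rpl29 was at 126, 121 and 120 CPM in Top3b-KO and at 149, 154 and 121 CPM in WT. Again WT replicate 3 lay among the Top3b-KO libraries, and the log2 fold change was -0.21 (SE 0.080, edgeR adjusted p 0.84). Rpl34 was at 276, 332 and 273 CPM in Top3b-KO and at 359, 377 and 296 CPM in WT. Here Top3b-KO replicate 2 lay above WT replicate 3, and the log2 fold change was -0.22 (SE 0.094, edgeR adjusted p 0.87). Rpl32 and Rpl13 were the other large-subunit genes with an unadjusted p under 0.05, with log2 fold changes of -0.17 and -0.14 (edgeR adjusted p 0.88 and 0.90).

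Non-overlapping libraries were seen in 2 members lower in Top3b-KO, against 5.63% of all tested genes, and in 1 member higher, against 5.39% of all tested genes. Rpl15 was 1 of the lower members, at 251, 265 and 245 CPM in Top3b-KO and at 279, 273 and 273 CPM in WT, and its log2 fold change was -0.12 (edgeR adjusted p 0.91). The other was Rps3a3, described with the copies below. The higher member was Rpl24, a large-subunit protein whose partial loss in mice gives the belly spot and tail phenotype, at 8.52, 9.43 and 7.79 CPM in Top3b-KO and at 6.59, 7.54 and 7.66 CPM in WT. Its log2 fold change was 0.25 (SE 0.139, edgeR adjusted p 0.91), on a level that the overlapping Gm28037 makes uncertain.

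Rpl39, which lines the exit tunnel for the growing peptide, was at 245, 293 and 259 CPM in Top3b-KO and at 222, 229 and 271 CPM in WT. The WT replicate 3 library was above Top3b-KO replicates 1 and 3, and the log2 fold change was 0.15 (SE 0.082). Rpl30 was at 265, 282 and 249 CPM in Top3b-KO and at 242, 240 and 279 CPM in WT, with the same library highest in WT and a log2 fold change of 0.069. Rpl9 was at 908, 974 and 893 CPM in Top3b-KO and at 910, 894 and 885 CPM in WT, with overlapping libraries and a log2 fold change of 0.045.

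The stalk proteins Rplp0, Rplp1 and Rplp2, which recruit translation factors to the large subunit, had log2 fold changes of -0.14, -0.16 and -0.085. Rplp0 was at 970, 1105 and 1071 CPM in Top3b-KO and at 1224, 1231 and 1002 CPM in WT. As in Rpl36, the WT replicate 3 library lay among the Top3b-KO libraries. Rpl5 and Rpl11, which with the 5S ribosomal RNA form the particle that can bind Mdm2 and so stabilise p53, had log2 fold changes of 0.015 and -0.020. Rpl5 was at 1169, 1278 and 1139 CPM in Top3b-KO and at 1198, 1152 and 1198 CPM in WT, and the groups overlapped. Rpl10, which joins late in the assembly of the large subunit, was at -0.11, Rpl22, required for the development of αβ T cells in mice, at 0.015, and Rpl13a, which in human monocytes also acts in the silencing of translation, at 0.012 on the log2 scale. Rpl38, mutated in the tail-short mouse, had a log2 fold change of -0.11.

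Among small-subunit proteins, Rps29 had the lowest unadjusted p, at 144, 123 and 114 CPM in Top3b-KO and at 142, 154 and 147 CPM in WT. Here Top3b-KO replicate 1 lay inside the WT range, and the log2 fold change was -0.21 (SE 0.078, edgeR adjusted p 0.83). Rps19, the gene most often mutated in human Diamond-Blackfan anaemia, was at 389, 402 and 371 CPM in Top3b-KO and at 456, 464 and 386 CPM in WT. Its log2 fold change was -0.17 (edgeR adjusted p 0.88). Over 8 genes mutated in that anaemia in humans (Rps19, Rps24, Rps26, Rps10, Rps7, Rpl35a, Rpl5 and Rpl11), 7 had a log2 fold change below 0, their values ran between -0.17 and 0.015, and 0 passed the adjusted threshold.

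Rps6, the substrate of the S6 kinases downstream of mTOR, was at 571, 611 and 573 CPM in Top3b-KO and at 627, 596 and 572 CPM in WT, a log2 fold change of -0.032 with overlapping libraries. Rpsa, mutated in humans born without a spleen, was at 1407, 1555 and 1504 CPM in Top3b-KO and at 1744, 1669 and 1362 CPM in WT. Its log2 fold change was -0.096, and WT replicate 3 was the lowest of all 6 libraries. Rps14, whose human copy lies in the region lost in the 5q- syndrome, had a log2 fold change of -0.015 and Rps3, which also has a role in DNA repair, of -0.042. Rps27a, made as a fusion with ubiquitin, had a log2 fold change of 0.0093 and Rps20, mutated in dark-skin mice, of -0.011.

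The order of the libraries did not follow the genotype alone. The 89 members took 4.38, 4.80 and 4.48% of all counts in the Top3b-KO libraries and 4.98, 4.92 and 4.44% in the WT libraries. The mean share was 4.55 ± 0.218% in Top3b-KO and 4.78 ± 0.296% in WT (SD, n = 3 each), and the ranges overlapped. The 95% Wilson intervals of these shares, which cover counting error only, were at most 0.0257 percentage points wide, so the libraries differed from each other by more than counting error. In log2 CPM, the median deviation of the 77 main copies from the mean of the 6 libraries was -0.082, 0.043 and -0.055 in Top3b-KO replicates 1 to 3 and 0.078, 0.082 and -0.059 in WT replicates 1 to 3. Of the 77 genes, 73 lay below their mean in Top3b-KO replicate 1 and 68 above it in WT replicate 2. Top3b-KO replicate 2 was on the side of WT replicates 1 and 2, and WT replicate 3 on the side of Top3b-KO replicates 1 and 3. The same medians over all tested genes lay between 0.0004 and 0.0059.

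**Figure D3:**
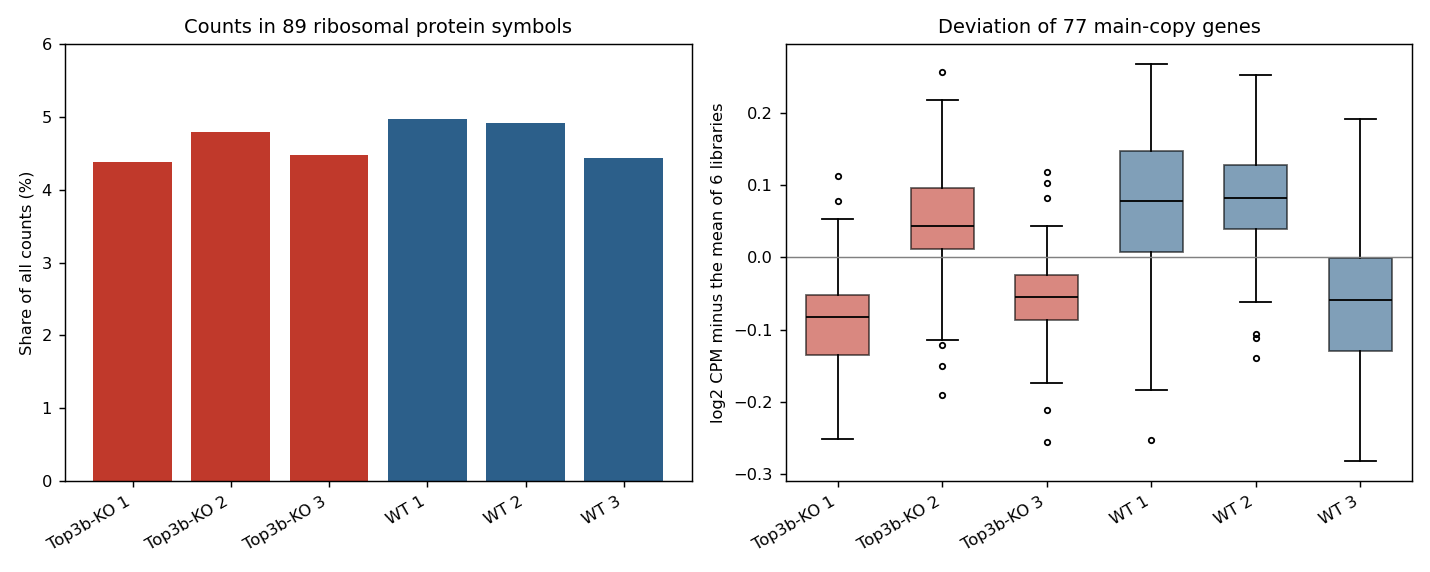
Left, percent of all counts in the 89 ribosomal protein symbols in each library. Right, log2 CPM of the 77 main copies minus each gene's mean of the 6 libraries, as boxes (median and quartiles, whiskers to 1.5 times the quartile range, points beyond). Top3b-KO replicate 2 lies above and WT replicate 3 below the other libraries of their genotype.

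Within some libraries, the deviations of single genes varied with the GC content of their transcripts. The sign of this correlation was that of the library median in every library except Top3b-KO replicate 2. That library had a median of 0.043 and a correlation of -0.46. In Top3b-KO replicates 1 and 3 the correlation was near 0, with medians of -0.082 and -0.055. The part of GC content in the library medians was not tested. Across the 77 main copies, the deviation and GC percent correlated with r = -0.082, -0.46 and -0.064 in Top3b-KO replicates 1 to 3 and with r = 0.46, 0.46 and -0.37 in WT replicates 1 to 3. Across 9285 other genes at 10 CPM or more, the values were -0.077, -0.51 and -0.11 in Top3b-KO and 0.51, 0.51 and -0.50 in WT, so the pattern was shared with genes outside the ribosome. The log2 fold change and GC percent correlated with r = -0.39 across the main copies and -0.46 across the other genes. These are correlations across genes within the same libraries and carry no test. With the GC trend over all genes removed, an alternative chosen after the data were seen, the median log2 fold change of the members was -0.046, and it was also -0.046 with the trend on transcript length removed. The part of GC content in the genotype difference was not tested beyond these values.

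The main copies were also split by GC content. The median log2 fold change was -0.041 in the 25 genes of lowest GC (41.3 to 49.5%), with 17 below 0 and 0 at an unadjusted p under 0.05. The 27 genes of middle GC had a median of -0.085, with 24 below 0 and 3 at an unadjusted p under 0.05. The 25 genes of highest GC (54.0 to 60.8%) had a median of -0.096, with 24 below 0 and 5 at an unadjusted p under 0.05. All of these calls were lower in Top3b-KO, a side on which 3.69% of all tested genes were called. Rpl36 and Rps10 were the main copies of highest GC, at 60.8 and 60.3%. Main copies had a median GC of 51.8% and a median transcript length of 774 bases, against 49.6% and 2350 bases over the tested genes with annotation.

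**Figure D4:**
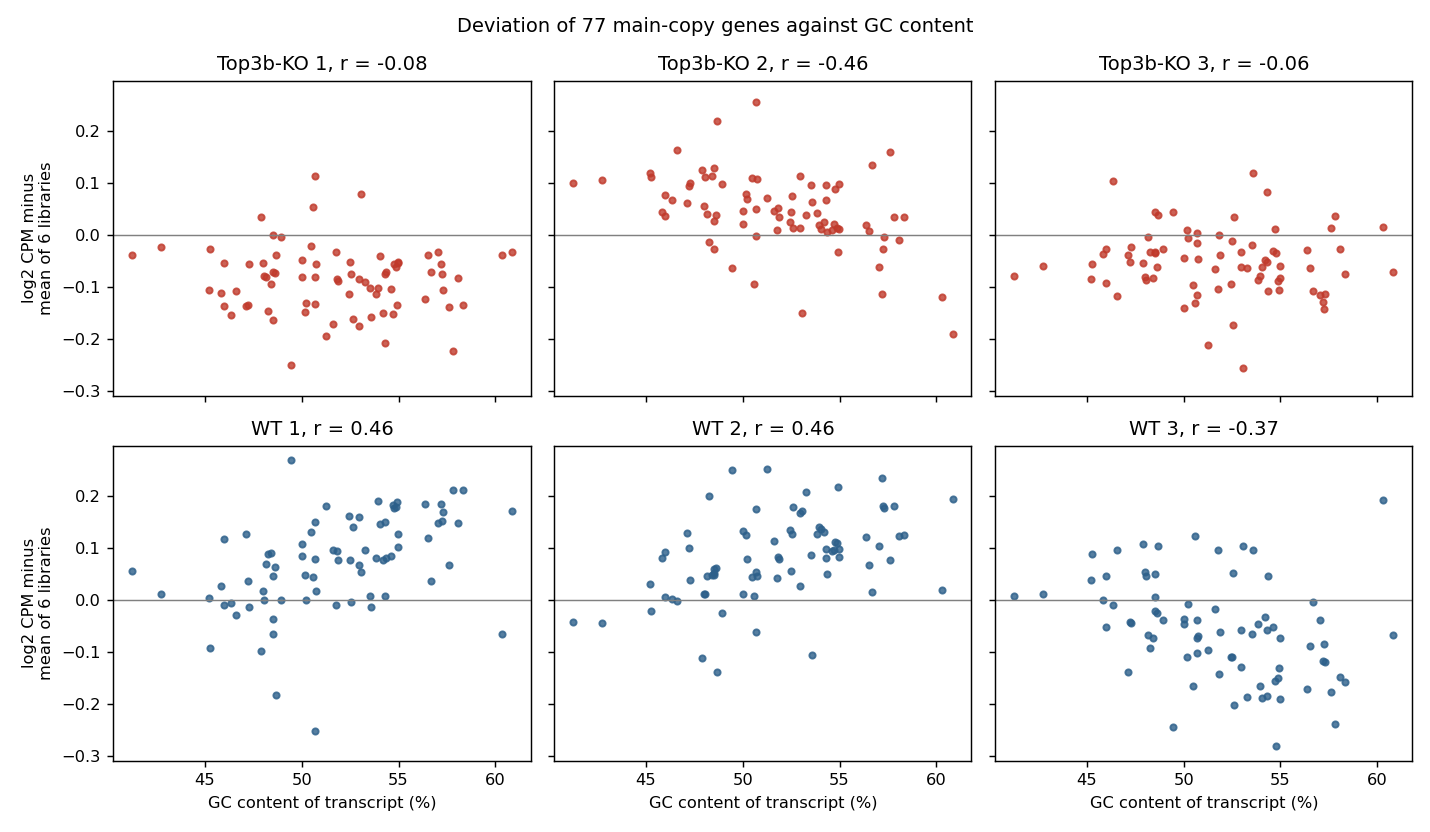
Deviation of each of the 77 main copies from its mean of the 6 libraries (log2 CPM) against GC percent of its transcript, with 1 panel for each library, Top3b-KO in the upper row and WT in the lower row, and Pearson's r in each title. The deviation rises with GC in WT replicates 1 and 2 and falls with GC in Top3b-KO replicate 2 and WT replicate 3.

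The main copies were also grouped by other features of the genes. A small nucleolar RNA on the same strand overlapped an annotated exon in 24 main copies. These had a median of -0.068 on the log2 fold change scale, with 21 below 0. The 53 without such an overlap had a median of -0.060, with 44 below 0. Small nucleolar RNAs lying wholly in introns were not counted, so the 53 can include genes that carry one. The 13 main copies with a run of at least 5 C or T bases from an annotated start at C had a median of -0.047, with 11 below 0. The 44 other matched genes had a median of -0.054, with 36 below 0. These others include genes with a run near the start, since 42 of the 57 matched genes had one. The accuracy of the annotated starts was not examined. With CCGGAAG in the window, 24 genes had a median of -0.050, and 33 without it had a median of -0.055.

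The paralogs differed in level from their partners. Rpl22l1, which can replace Rpl22 in the large subunit, was at 45.7, 43.3 and 36.8 CPM in Top3b-KO and at 36.5, 37.8 and 45.6 CPM in WT. Its share of the summed Rpl22 and Rpl22l1 counts was 22.5, 19.8 and 18.7% in Top3b-KO and 18.4, 18.4 and 22.4% in WT. The mean share was 20.3 ± 1.98% in Top3b-KO and 19.7 ± 2.30% in WT (SD, n = 3 each), so the difference was smaller than the spread between replicates. Rps27l, a p53-induced paralog of Rps27, took 4.70, 3.58 and 3.90% of its pair in Top3b-KO and 4.72, 3.70 and 4.07% in WT, with a mean of 4.06 ± 0.572% in Top3b-KO and of 4.16 ± 0.517% in WT (SD, n = 3 each). Rpl39l, the testis paralog of Rpl39, had 1, 3 and 0 counts in Top3b-KO and 0, 0 and 0 counts in WT, which is at or under the floor. Rpl7l1 was at 75.7, 82.3 and 77.6 CPM in Top3b-KO and at 78.6, 70.7 and 79.5 CPM in WT. Rpl3l, known from heart and skeletal muscle, was at 0.30 to 1.1 CPM in Top3b-KO and at 0.38 to 0.84 CPM in WT, and Rpl10l, known from testis, had no count.

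Of the 5 other copies tested, all had log2 fold changes below 0, between -0.74 and -0.13. Mean levels were 1.43 to 3.22 CPM per kb in Rps3a2, Rpl32l, Rps3a3 and Rpl6l, below every main copy, and 23.2 CPM per kb in Rps4l, above Rpl24 and Rps10. Rps3a3 on chromosome 13, a processed pseudogene of Rps3a1, had the lowest unadjusted p of all members, at 1.64, 1.94 and 1.52 CPM in Top3b-KO and at 3.29, 2.95 and 2.45 CPM in WT. The libraries did not overlap, and the log2 fold change was -0.74 (SE 0.226, edgeR adjusted p 0.67). It shares 31.6% of its 100-base windows with other annotated genes. Rps3a1, the main copy of that name, was at 1017, 1097 and 998 CPM in Top3b-KO and at 1069, 1065 and 1097 CPM in WT. Reads of the pseudogene and of the main copy were not separated further, since the treatment of reads with several matches was not given in the sources used here. Rps4l was at 16.4, 19.4 and 16.3 CPM in Top3b-KO and at 14.8, 24.5 and 18.7 CPM in WT.

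Genes that act with the ribosomal proteins were examined as lists, and 0 genes of these 6 lists passed the edgeR adjusted threshold. Of 22 translation factors and other mRNAs with a terminal oligopyrimidine motif, 10 had a log2 fold change below 0 and the median was 0.0063. The elongation factors Eef1a1 and Eef2 were at -0.0028 and -0.084 on the log2 fold change scale. The 4 ribosomal proteins named outside the symbol rule had a median of -0.13, with Rack1, a scaffold on the small subunit, at -0.12, and Fau, which makes a small-subunit protein fused to a ubiquitin-like one, at -0.14. Of 45 ribosome biogenesis factors, 15 were below 0 and the median was 0.042. At an unadjusted p under 0.05 in edgeR, 3 were higher and 0 lower, against 1.83% and 3.69% of all tested genes. The 3 were the nucleolar protein Ncl (log2 fold change 0.14), Mdn1 (0.15) and Wdr43. Libraries did not overlap in 9 higher and 2 lower factors, against 5.39% and 5.63% of all tested genes. The 45 factors summed to between 4959 and 5096 CPM in Top3b-KO and to between 4787 and 4848 CPM in WT, without overlap. These sums include Ncl and Mdn1, the most abundant of the 45. Their means were 1133 and 628 CPM in Top3b-KO and 1027 and 565 CPM in WT. Sums without these genes were not examined. Of 16 genes of RNA polymerase I and its factors, 5 were below 0, with a median of 0.044.

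Of 20 genes of growth signalling to ribosomal protein mRNAs, 15 were below 0 with a median of -0.034. Akt1s1, an inhibitor of mTOR, was the single gene at an unadjusted p under 0.05 in edgeR, with a log2 fold change of -0.27. On that side 3.69% of all tested genes were called. Libraries did not overlap in 4 lower and 0 higher genes of this list, against 5.63% and 5.39% of all tested genes. Larp1 was at 0.061. Of the ribosome quality control and stress genes, 15 of 16 were tested, with a median of 0.032 and 5 below 0.

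Markers of the cell types in the spleen also varied between libraries, and their part in the ribosomal protein values was not tested. The 8 B cell markers summed to between 3635 and 3810 CPM in Top3b-KO and to between 3472 and 4074 CPM in WT, and the 9 T cell markers to between 1614 and 1638 CPM in Top3b-KO and to between 1462 and 1654 CPM in WT. The 7 plasma cell markers summed to between 409 and 552 CPM in Top3b-KO and to between 461 and 548 CPM in WT. The 9 erythroid markers found of 10 summed to between 839 and 1236 CPM in Top3b-KO and to between 1039 and 1825 CPM in WT. The 9 cycling cell markers summed to between 333 and 431 CPM in Top3b-KO and to between 399 and 474 CPM in WT. For neutrophils the 9 markers summed to between 444 and 1459 CPM in Top3b-KO and to between 617 and 1086 CPM in WT. The 6 red pulp macrophage markers summed to between 390 and 455 CPM in Top3b-KO and to between 436 and 500 CPM in WT, and the 6 natural killer cell markers to between 203 and 242 CPM in Top3b-KO and to between 212 and 260 CPM in WT. A log2 fold change below 0 was found for all 9 erythroid markers (median -0.38), all 9 cycling cell markers (-0.18), all 6 natural killer cell markers (-0.11), all 7 plasma cell markers (-0.089) and all 8 B cell markers (-0.074). It was found for 5 of 6 red pulp macrophage markers (-0.085), 6 of 9 neutrophil markers (-0.041) and 1 of 9 T cell markers (0.061). In the edgeR test 0 markers of any list passed the adjusted threshold. At an unadjusted p under 0.05, 6 were lower and 2 higher, against 3.69% and 1.83% of all tested genes. The ranges of the genotypes' summed levels overlapped in all 8 lists, and no marker was at 0 in every library. By library, the erythroid sums were 1236, 839 and 938 CPM in Top3b-KO replicates 1 to 3. In WT replicates 1 to 3 they were 1039, 1825 and 1205 CPM. The median deviations of the ribosomal protein main copies, in the same order, were -0.082, 0.043 and -0.055 in Top3b-KO and 0.078, 0.082 and -0.059 in WT. Top3b-KO replicate 3 had the highest neutrophil sum of all libraries.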

How the data were processed

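RNA of total splenocytes was measured in 3 Top3b-KO and 3 WT libraries. The authors deposited expected counts per gene symbol, and the values were rounded to whole numbers (72 symbols held values that were not whole within 1e-06, and 0 of them were members). Per the submitters' processing notes, STAR and the build mm39 were used. What counted the reads, on which annotation and strand, and how multiply matching reads were handled was not given in the sources used here. Read length is given as 150 bases in the sample descriptions and 101 in the protocol, which also describes more than 1 library kit.

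Genes were filtered with filterByExpr (18716 kept) and tested with edgeR 4.0.16 (TMM, robust quasi-likelihood F test, genotype as the single term, two-sided) in R 4.3.3, with p-values adjusted by Benjamini-Hochberg over all 18716 and called under 0.05. DESeq2 1.42.0 and limma 3.58.1 were alternatives. Other scalings and filters, a replicate block, leaving out each library, and length and GC corrections were also run. Deviations used log2 CPM with a prior count of 2. Transcript length, GC content, overlaps and shared windows came from GENCODE M21 (GRCm38), with 1 transcript per gene chosen by APPRIS rank, support level and then shortest length, and 92.8% of tested genes matched.

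The members and lists were chosen with earlier results of these data known. Genes named were the 5 of smallest p in each direction, the 4 most abundant per subunit, a list by role and the paralogs. Of each other list, the most abundant and those of smallest p were eligible. Rpl13, Rpl15, Rpl23a and Rpl32 were chosen after their values were seen. Values of some single genes are not reported here.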

Additional observations from a re-analysis of the deposited data

How the results depend on the processing

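The median log2 fold change of the members stayed below 0 in every alternative, between -0.077 and -0.057 under the other scalings, filters and tools and the replicate block, and between -0.10 and -0.026 when 1 library was left out. It was -0.037 over the 16 tested members with under 10% of windows shared, a subset chosen after the data were seen. This subset held 11 main copies, the paralogs Rpl3l, Rpl7l1 and Rps27l, and the pseudogenes Rpl32l and Rps4l. The number of members below 0 was 53 to 79 with 1 library left out. Members past the adjusted threshold numbered 0 in all alternatives except without WT replicate 3, which gave 2 (range 0 to 2). The difference in share of counts, Top3b-KO minus WT, was -0.226 percentage points and -0.396 to -0.126 with 1 library left out. Over all genes, 2 passed, against 44 with no filter, 6 with DESeq2, 1 each with limma-voom and robust=FALSE, and 1 to 32 with 1 library left out (32 without WT replicate 3, 9 without Top3b-KO replicate 1); the cause was not tested.

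The labels state no pairing of the libraries. Correlations of deviations were 0.156, -0.0067 and 0.0093 between same-numbered libraries and -0.080 to 0.078 between differently numbered ones. Deviations from a mean of 3 libraries are bound to each other, so these values cannot settle whether libraries were paired. The fit with a replicate block gave 41 genes past the threshold and 0 members. Of 671 alternative values for 42 named genes, 645 kept direction and side of the threshold or stayed within the spread, 25 moved and 1 passed the threshold (Rpl29, without WT replicate 3). Top3b was lower in all 16 alternatives (-0.90 to -0.83).

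Depth was lowest in Top3b-KO replicate 3 and limits the copies at a few CPM. Overlapping and near-identical genes limit the levels of Rpl24, Rps10, Rpl13a and the pseudogenes.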
